A study of Mus musculus with 8 samples.

Results

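Classical cadherins and the catenins that bind them were followed in cultured mouse colon fibroblasts with and without Zeb1. The 10 genes were taken by symbol from the gene sums of the deposited quantification, out of 45321 genes, and comprised 7 cadherins (Cdh1, Cdh2, Cdh3, Cdh4, Cdh6, Cdh11 and Cdh13) and 3 catenins (Jup, Ctnna1 and Ctnnb1). The rule used symbols and no measured value, although the genes were proposed with earlier results of these data known. Expression filtering kept 12963 genes for the test, among them 7 of the 10. Cdh1, Cdh4 and Cdh6 had too few reads.

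Bulk RNA sequencing covered 8 libraries of polyadenylated RNA from untreated colon fibroblasts, 4 of Fib-ΔZeb1 (Zeb1 del/del) and 4 of Fib-Ctrl (Zeb1 flox/flox). The labels number 2 lines within each genotype (line 1 and line 2 from here on) and 2 replicates within each line. The study grew the fibroblasts out of colon tissue on gelatine and induced Cre in vitro to delete the loxP-flanked Zeb1 alleles, which both genotypes carried before deletion. Its mice carried Col6a1-Cre or Col1a2-CreERT2, both active in fibroblasts. The sources used here name neither the driver in these cultures nor the treatment of the Fib-Ctrl cultures. P-values over the 8 libraries treat the replicates of a line as independent, so they cover the spread between these libraries, which may in part be technical.

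Cadherins are calcium-dependent adhesion receptors that hold neighbouring cells together through their extracellular repeats. The tail of a classical cadherin binds β-catenin (Ctnnb1) or plakoglobin (Jup), and either of these binds α-catenin (Ctnna1), which links the junction to actin. β-catenin that is not held at junctions can enter the nucleus and act with TCF/LEF factors in Wnt signalling. ZEB1 is a zinc-finger factor that binds E-boxes and is best known in epithelial cells as a repressor of Cdh1 (E-cadherin), while mesenchymal cells such as fibroblasts carry N-cadherin (Cdh2) and OB-cadherin (Cdh11) in its place.

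Zeb1 itself had 18.3, 14.5, 11.4 and 12.9 CPM (reads scaled to the library total after TMM normalisation) in Fib-ΔZeb1, against 93.95, 94.4, 92.1 and 98.5 CPM in Fib-Ctrl. Each library held 18852422 to 25540529 reads. Fib-ΔZeb1 line 1 had 113 to 250.9 CPM of Xist and no Ddx3y reads, a female pattern. The 3 other lines had 32.9 to 111 CPM of Ddx3y and no Xist, a male pattern. Lines with the same number thus did not all come from the same animal. Sex and line cannot be told apart within Fib-ΔZeb1, and sex was uneven between the genotypes. Over all genes tested, edgeR called 7.54% higher and 8.65% lower at an adjusted p under 0.05, and DESeq2 called 10.4% and 11.6%. The fibroblast markers summed to 12851 to 24269 CPM in Fib-ΔZeb1 and 42009 to 52670.0 CPM in Fib-Ctrl, with 0 of the 9 tested called higher and 3 lower. These were Col1a1, Col1a2 and S100a4 (log2 fold change -1.65, adjusted p = 0.00761, -1.76, adjusted p = 0.00633, and -1.49, adjusted p = 0.00515). The other 6 did not pass, with log2 fold changes of -0.88 (Col3a1) to 0.16 (Thy1), and Fap was under 1 CPM throughout. At an unadjusted p under 0.05 the counts were also 0 higher and 3 lower, as in DESeq2. No share of all genes was counted at that unadjusted cut, here or for the markers below. Of 14 epithelial markers, 10 stayed under 1 CPM in every library and Cldn3, Cdx1 and Cdx2 had no reads. Their sum was 19.6 to 131 CPM in Fib-ΔZeb1 and 2.39 to 5.25 CPM in Fib-Ctrl, with Krt18 and Epcam higher (log2 fold change 8.31, adjusted p = 0.0115, and 6.35, adjusted p = 0.000902). Krt18 averaged 80.96 CPM in Fib-ΔZeb1 line 1 and 4.17 CPM in Fib-ΔZeb1 line 2. Krt19 was tested and not called (log2 fold change 1.82, adjusted p = 0.106). The filter removed Krt8, which had 1.05 ± 0.853 CPM in Fib-ΔZeb1 and 0.0146 ± 0.0291 CPM in Fib-Ctrl, with no overlap. It was named after its values were seen. DESeq2 called 4 epithelial markers higher and 0 lower. Smooth muscle and interstitial cell markers summed to 416 to 590.3 CPM in Fib-ΔZeb1 and 1534 to 3131 CPM in Fib-Ctrl. Of the 4 tested, Actg2 and Cnn1, which encode contractile proteins, were lower (log2 fold change -3.08, adjusted p = 0.0044, and -1.25, adjusted p = 0.00611), and Ano1 was higher (log2 fold change 2.23, adjusted p = 0.0431). Myh11, the remaining tested marker, was not called (log2 fold change -0.44, adjusted p = 0.632), and Des and Kit were under 1 CPM throughout. Mesothelial markers reached 9.38 CPM in sum in Fib-ΔZeb1 and 0.916 CPM in Fib-Ctrl, with Msln called higher (log2 fold change 6.93, adjusted p = 0.00552) and the 5 others under 1 CPM. Endothelial markers summed to at most 4.01 CPM in Fib-ΔZeb1 and 3.25 CPM in Fib-Ctrl, immune markers to 3.92 CPM in Fib-ΔZeb1 and 16.5 CPM in Fib-Ctrl, and glial markers to 0.82 CPM in Fib-ΔZeb1 and 3.9 CPM in Fib-Ctrl. Pericyte markers summed to at most 40.4 CPM in Fib-ΔZeb1 and 46.1 CPM in Fib-Ctrl. Of the 8 genes tested in these 4 lists, edgeR called 0, 1 was higher and 3 lower at an unadjusted p under 0.05, and DESeq2, run without the filter, called 0 higher and 4 lower. Leaving out Fib-ΔZeb1 line 1, edgeR called 3 epithelial markers higher, 0 smooth muscle and interstitial cell markers higher and 2 lower, and 1 pericyte marker higher and 1 lower. In bulk RNA, fewer cells of a type and less RNA per cell cannot be told apart, and the part of these markers in the results on cadherins and catenins was not tested.

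Levels were set side by side per length of transcript, as TPM. Ctnnb1 and Ctnna1 were the most abundant of the 10 genes in both genotypes. Ctnnb1 led with 405 ± 58.5 TPM in Fib-ΔZeb1 and 312 ± 39.5 TPM in Fib-Ctrl (SD, n = 4 each). Ctnna1 followed with 280.4 ± 10.03 TPM in Fib-ΔZeb1 and 188 ± 21.5 TPM in Fib-Ctrl, and its range overlapped neither that of Ctnnb1 nor that of the next gene. Cdh11 had 132 ± 61.6 TPM in Fib-ΔZeb1 and 100.4 ± 25.5 TPM in Fib-Ctrl. Jup had 130 ± 28.6 TPM in Fib-ΔZeb1 and 71.6 ± 24.8 TPM in Fib-Ctrl. Cdh2 and Cdh3 came next, with 92.8 ± 22.6 and 69.5 ± 9.76 TPM in Fib-ΔZeb1, against 50.8 ± 20.5 and 61.4 ± 31.96 TPM in Fib-Ctrl. Within each genotype, neighbours in the order from Cdh11 to Cdh2 or Cdh3 overlapped in their ranges and are not told apart. Below a clear gap stood Cdh13, at 0.0733 to 6.41 TPM in Fib-ΔZeb1 and 0.0678 to 0.923 TPM in Fib-Ctrl, and Cdh6, at 0 TPM in Fib-ΔZeb1 and 0.253 to 1.94 TPM in Fib-Ctrl. Cdh1 did not exceed 0.252 TPM in any library, and Cdh4 did not exceed 0.121 TPM.

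Cdh2, Cdh3 and Cdh11 thus made up 98.19% to 99.95% of the summed cadherin TPM in Fib-ΔZeb1 and 98.9% to 99.54% in Fib-Ctrl. P-cadherin (Cdh3), usually described in basal epithelial layers, held 20.02% to 26.5% of that sum in Fib-ΔZeb1 and 15.4% to 46.1% in Fib-Ctrl. Cdh3 and Cdh1 lie on the same strand of chromosome 8 (GRCm38), Cdh3 at 106510891 to 106557297 and Cdh1 at 106603351 to 106670246, with 46053 bases and 2 annotated genes, 1 of them protein-coding, between them. Cdh3 was at 31.85 TPM or more in every library, and Cdh1 at or near 0 TPM. Cdh11 (102632095 to 102785642) and Cdh13 (118283733 to 119324921) are on the same chromosome.

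**Figure D1:**
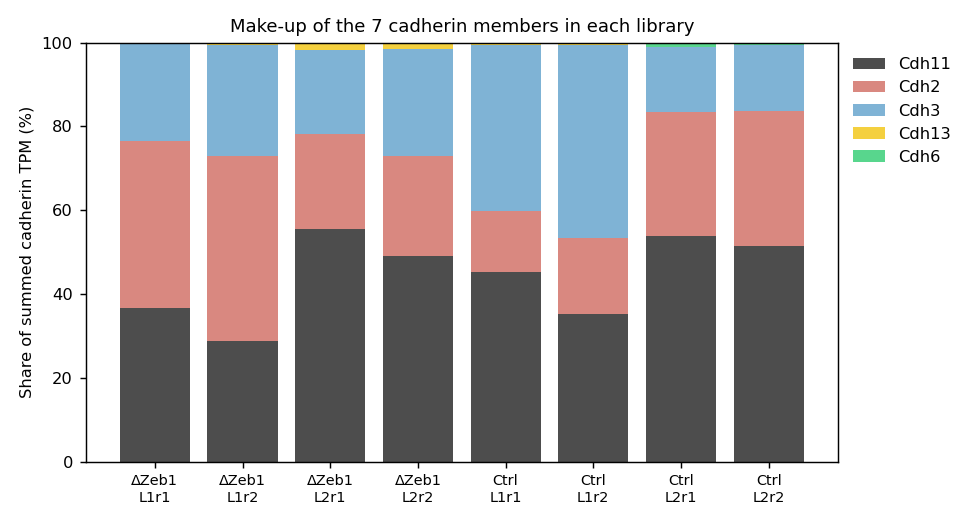
Share of the summed TPM of the 7 cadherins (y axis, percent) held by each gene in each of the 8 libraries (x axis, L for line and r for replicate), with Cdh1 and Cdh4 too small to draw. Cdh11, Cdh2 and Cdh3 fill 98.19% or more of every bar, and the 2 Fib-Ctrl line 1 libraries have the largest Cdh3 shares, 39.6% and 46.1%.

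RefSeq promoter windows were found for 3 of the 10 genes (Ctnnb1, Jup and Cdh6). Sequence upstream of the start is shown for Jup and Cdh6, which DESeq2 called between genotypes, and not for Ctnnb1, which was called in none of the genotype fits. For all 3, the 250 bases before the annotated start were searched on both strands for the E-box written CACCTG or CAGGTG and for the shorter CACCT or AGGTG, which lies inside it. The shorter motif is in capitals. The Jup window is chr11:100397791-100398040 and the Cdh6 window chr15:13173676-13173925, both on the minus strand of GRCm38.p6.
Jup: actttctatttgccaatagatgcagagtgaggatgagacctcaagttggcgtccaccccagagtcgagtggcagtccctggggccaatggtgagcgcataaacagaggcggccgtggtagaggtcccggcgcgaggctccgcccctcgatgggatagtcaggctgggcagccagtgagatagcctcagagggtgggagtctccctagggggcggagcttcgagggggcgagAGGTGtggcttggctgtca
Cdh6: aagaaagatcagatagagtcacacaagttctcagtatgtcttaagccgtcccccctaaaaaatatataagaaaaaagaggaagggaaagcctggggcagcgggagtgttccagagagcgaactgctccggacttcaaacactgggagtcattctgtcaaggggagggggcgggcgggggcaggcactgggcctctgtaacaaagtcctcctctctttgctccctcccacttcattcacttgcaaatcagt
The Jup window held 1 AGGTG, whose first base lies at position -19 from the start, and no CACCTG or CAGGTG. Neither motif occurred in the Cdh6 window, nor in either window of Ctnnb1. Among 32851 windows of this length, 46.0% held CACCT or AGGTG and 17.2% held CACCTG or CAGGTG. A match is a description of these letters and not a binding site.

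The comparison of genotypes asks which cadherins and catenins differ when Zeb1 is deleted. Across all 12963 genes, edgeR's quasi-likelihood test with Benjamini-Hochberg adjustment called 7.54% higher and 8.65% lower at an adjusted p under 0.05. Of the 7 members tested, 1 was called higher (Ctnna1) and 0 lower, and 4 (Cdh2, Cdh13, Jup and Ctnna1) had an unadjusted p under 0.05. No share of all genes was counted at that unadjusted cut, so the 4 have no background beside them. DESeq2 called 3 higher (Ctnna1, Jup and Cdh13) and 1 lower (Cdh6, which the expression filter of edgeR had removed), against 10.4% of 15110 genes called higher and 11.6% lower by that tool. All 7 log2 fold changes were positive, as were 49.6% of those of all genes tested. Their median was 0.407, against -0.00474 over all genes tested. The values of Cdh3 and Cdh11 changed sign under some alternatives. The libraries of the genotypes did not overlap for 1 of the 7 (Ctnna1), against 24.3% of all genes tested.

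Ctnna1, which encodes the α-catenin that couples cadherins to actin, had 549, 535.5, 538 and 555 CPM in Fib-ΔZeb1, against 363, 372, 428 and 478 CPM in Fib-Ctrl. All 4 Fib-ΔZeb1 libraries lay above all 4 Fib-Ctrl libraries, and those of Fib-ΔZeb1 were nearly level (SD 9.15, against 53.8 CPM in Fib-Ctrl). The log2 fold change was 0.41 ± 0.11 (SE), or 1.33-fold (edgeR, adjusted p = 0.0382). That call was narrow. Leaving out single libraries gave log2 fold changes of 0.35 to 0.48 with an adjusted p of 0.0272 to 0.0962, and it held only without Fib-Ctrl line 2 replicate 2. It was also lost in limma-voom with the correlation of libraries of a line (adjusted p = 0.149), and without Fib-Ctrl line 1 the log2 fold change was 0.26 (adjusted p = 0.134).

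Jup, or plakoglobin, a close relative of β-catenin that also serves in desmosomes, had 172.5, 148, 232 and 234 CPM in Fib-ΔZeb1, against 155, 150, 87.6 and 92.8 CPM in Fib-Ctrl. Fib-ΔZeb1 line 1 and Fib-Ctrl line 1 overlapped, and the line 2 libraries stood far apart. The log2 fold change was 0.70 ± 0.24 (adjusted p = 0.078), which missed the threshold. It passed in DESeq2 (adjusted p = 0.0286), in edgeR with scaling by library size alone (adjusted p = 0.0354), on the TPM scale with limma (adjusted p = 0.0378), and in edgeR without Fib-Ctrl line 1 (log2 fold change 1.12, adjusted p = 0.0192). Without Fib-Ctrl line 2 the log2 fold change was 0.36 (adjusted p = 0.275).

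Ctnnb1, which encodes β-catenin, had 844, 821, 645 and 647 CPM in Fib-ΔZeb1, against 689, 724, 585 and 577 CPM in Fib-Ctrl. The genotypes overlapped, and line 1 exceeded line 2 in each of them. The log2 fold change was 0.20 ± 0.14 (adjusted p = 0.344), with a 95% interval of -0.0667 to 0.464. Summed over the 3 catenins, the level was 816 ± 43.0 TPM in Fib-ΔZeb1 and 572 ± 44.5 TPM in Fib-Ctrl (SD, n = 4 each). On the TPM scale the median of all genes was itself higher in Fib-ΔZeb1, by 0.156 on the log2 scale, and with scaling by library size alone it was higher by 0.173.

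Cdh2, the N-cadherin typical of mesenchymal cells, had 286, 222, 194 and 163 CPM in Fib-ΔZeb1, against 89.3, 85.6, 161 and 197 CPM in Fib-Ctrl. The 2 Fib-Ctrl line 1 libraries were low. Of Fib-Ctrl line 2, replicate 2 lay among the Fib-ΔZeb1 libraries and replicate 1 just below the lowest of them. The log2 fold change was 0.70 ± 0.30 (adjusted p = 0.14). Its size moved with the lines compared. Without Fib-Ctrl line 2 it was 1.30 (adjusted p = 0.016), and without Fib-Ctrl line 1 it was 0.27 (adjusted p = 0.445). Without Fib-ΔZeb1 line 1 it was 0.43 (adjusted p = 0.462), and without Fib-ΔZeb1 line 2 it was 0.94 (adjusted p = 0.173).

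Cdh3 had 149, 120, 154 and 159 CPM in Fib-ΔZeb1, against 215, 196, 75.0 and 87.7 CPM in Fib-Ctrl. The Fib-ΔZeb1 libraries were close together and fell in the empty interval between the Fib-Ctrl lines, so that the mean difference was near 0 (log2 fold change 0.02 ± 0.33, adjusted p = 0.976). The interval of the difference, -0.637 to 0.675, does not show equal levels. Setting Fib-ΔZeb1 against 1 Fib-Ctrl line at a time gave opposite signs, 0.84 without Fib-Ctrl line 1 (adjusted p = 0.016) and -0.51 without Fib-Ctrl line 2 (adjusted p = 0.0526).

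Cdh11, a type II cadherin of mesenchymal cells, had 250.5, 139, 454 and 324 CPM in Fib-ΔZeb1, against 262, 159, 280 and 305 CPM in Fib-Ctrl. Fib-ΔZeb1 contained both the lowest and the highest library. The log2 fold change was 0.22 ± 0.34 (adjusted p = 0.702), with a 95% interval of -0.454 to 0.885. Its direction turned with the libraries compared. It was -0.08 (adjusted p = 0.9) without Fib-ΔZeb1 line 2 replicate 1, -0.37 (adjusted p = 0.531) without both libraries of that line, and 0.63 (adjusted p = 0.17) without Fib-ΔZeb1 line 1.

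**Figure D2:**
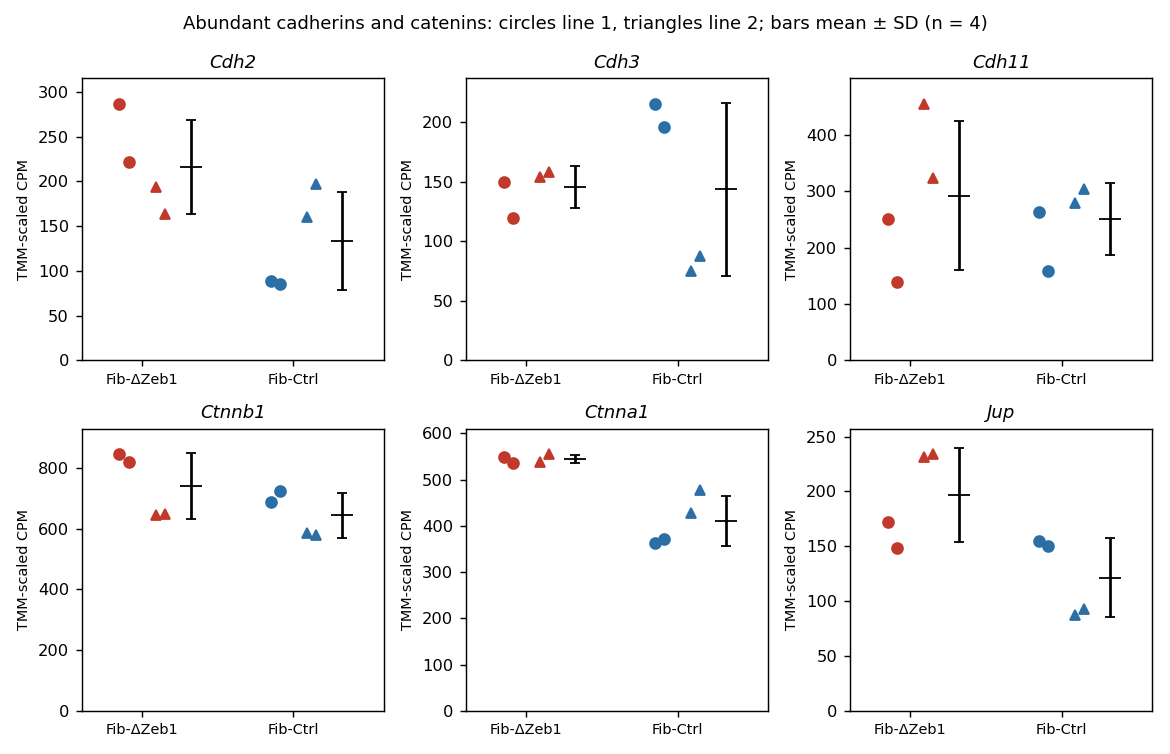
TMM-scaled CPM (y axis, from 0) of the 3 abundant cadherins and the 3 catenins in the 4 Fib-ΔZeb1 (left) and 4 Fib-Ctrl libraries (right), with circles for line 1, triangles for line 2, and bars for mean ± SD (n = 4). The genotypes separate fully for Ctnna1 alone, at 535.5 to 555 against 363 to 478 CPM, and the Fib-Ctrl lines part widely for Cdh2, Cdh3 and Jup.

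Cdh13, or T-cadherin, is held in the membrane by a lipid anchor and has no tail to bind catenins. It had 0.143, 2.43, 12.3 and 8.37 CPM in Fib-ΔZeb1, against 1.79, 1.18, 0.757 and 0.155 CPM in Fib-Ctrl. Only the Fib-ΔZeb1 line 2 libraries and Fib-ΔZeb1 line 1 replicate 2 exceeded every Fib-Ctrl library, and Fib-ΔZeb1 line 1 replicate 1 was the lowest of the 8, with 3 reads. The log2 fold change was 2.57 ± 1.08 (adjusted p = 0.137). It passed in DESeq2 (adjusted p = 0.031), and in edgeR without Fib-ΔZeb1 line 1 replicate 1 (log2 fold change 2.97, adjusted p = 0.0386) or without both libraries of that line (3.40, adjusted p = 0.0325). Without Fib-ΔZeb1 line 2 it was 0.41 (adjusted p = 0.855).

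Cdh1, the E-cadherin that ZEB1 represses in epithelial cells, stayed at the edge of detection in both genotypes. It had 4, 4, 9 and 5 reads in Fib-ΔZeb1, against 3, 0, 0 and 0 reads in Fib-Ctrl. No library exceeded 0.41 CPM. The rate over all reads was 6.07 times higher in Fib-ΔZeb1, with a 95% exact interval of 1.82 to 31.7 that covers counting error only. The 4 Fib-ΔZeb1 libraries lay above the 4 Fib-Ctrl libraries on log2(CPM + 0.5), for which an exact permutation test over 70 arrangements gave a two-sided p = 0.0286, the smallest it can give. On log2(TPM + 0.5), and without any 1 of the Fib-ΔZeb1 libraries, the exact p was 0.0571. In DESeq2 the adjusted p was 0.181, and in edgeR with no expression filter it was 0.187. The reads were not placed on 1 transcript. The full-length Cdh1-201 took them in 3 Fib-ΔZeb1 libraries, and a shorter protein-coding transcript of 3203 bases took all 9 in Fib-ΔZeb1 line 2 replicate 1 and all 3 in Fib-Ctrl line 1 replicate 1.

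Cdh6, a type II cadherin known from kidney, was the only member with no reads in any Fib-ΔZeb1 library. It had 0, 0, 0 and 0 reads in Fib-ΔZeb1, against 8, 9, 50 and 33 reads in Fib-Ctrl. Every Fib-Ctrl library held some, with line 2 (1.70 and 2.91 CPM) above line 1 (0.366 and 0.463 CPM). A count of 0 over the 4 Fib-ΔZeb1 libraries allows 3 reads as an upper limit (0.0319 CPM). The Cdh6 rate in Fib-Ctrl was 40.3 times that limit. For Fib-Ctrl line 1 alone it was 12.9 times, and for Fib-Ctrl line 2 alone 71.2 times. Counting error in the Fib-Ctrl reads was left out of these values, so smaller folds are also possible. The exact permutation test gave a two-sided p = 0.0286 on CPM and on TPM. DESeq2 gave an adjusted p = 2.31e-06, and edgeR with no expression filter gave an adjusted p = 0.0139. Without any 1 of the Fib-ΔZeb1 libraries the exact p was 0.0857. Cdh6 was at most 1.94 TPM in Fib-Ctrl, or 0.937% of the summed cadherin TPM there.

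Cdh4, or R-cadherin, had 0, 0, 9 and 2 reads in Fib-ΔZeb1 and no reads in Fib-Ctrl. Both libraries with reads came from Fib-ΔZeb1 line 2. The exact permutation test gave a two-sided p = 0.429. Over all reads the Fib-ΔZeb1 rate of Cdh4 was 3.04 times that of the 3 reads that a count of 0 allows in Fib-Ctrl. Counting error in the Fib-ΔZeb1 reads was left out, so a smaller fold is also possible.

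**Figure D3:**
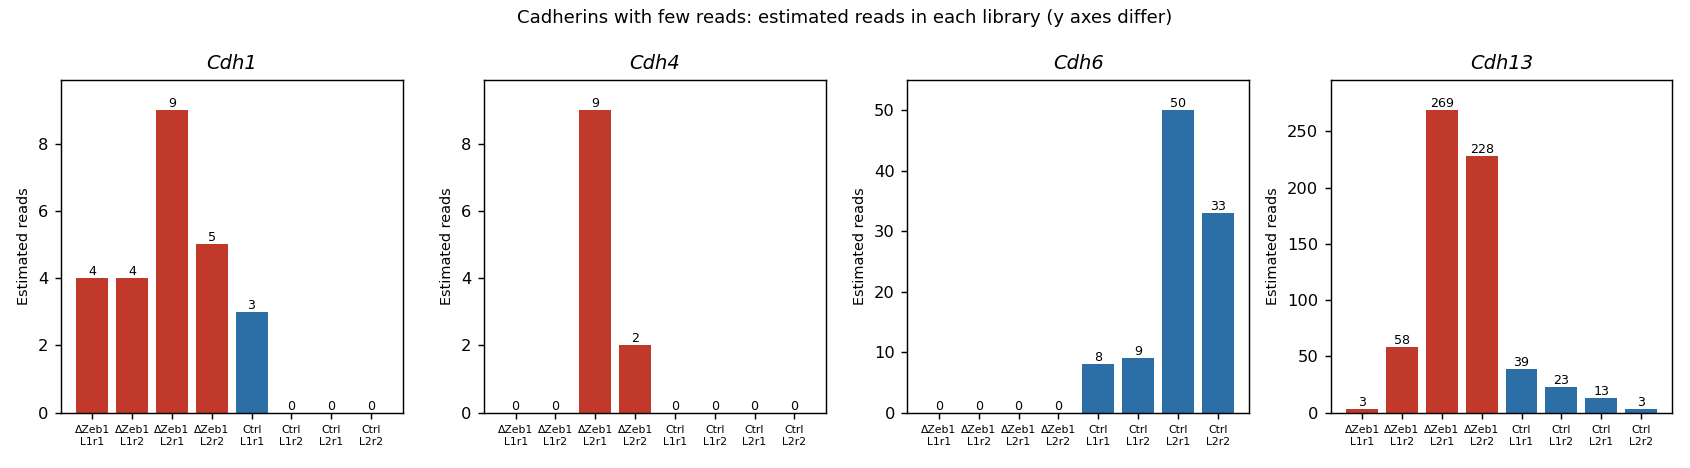
Estimated reads (y axis, from 0, with its own scale in each panel) of Cdh1, Cdh4, Cdh6 and Cdh13 in the 4 Fib-ΔZeb1 (left) and 4 Fib-Ctrl libraries (right), with L for line and r for replicate. Cdh6 has 0 reads in each Fib-ΔZeb1 library and 8 to 50 in each Fib-Ctrl library, whereas Cdh1 and Cdh4 never exceed 9 reads.

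Lines of 1 genotype differed as well. In a fit with a mean for each of the 4 lines, 6.87% of all genes were called between line 1 and line 2 of Fib-ΔZeb1 and 17.0% between those of Fib-Ctrl, in either direction. Within Fib-ΔZeb1 the lines also differ in sex, which cannot be told apart from line. Of the 7 members tested, 1 was called within Fib-ΔZeb1 (Jup) and 3 within Fib-Ctrl (Cdh2, Cdh3 and Jup). Their median absolute difference between lines was 0.509 in Fib-ΔZeb1 and 0.756 in Fib-Ctrl on the log2 scale, against 0.257 and 0.311 over all genes tested.

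Of the 3 members called between the Fib-Ctrl lines, Cdh3 differed most, with line 1 higher by 1.34 ± 0.14 on the log2 scale (edgeR, adjusted p = 0.00193). Cdh13 had a larger log2 difference there that did not pass (1.73, adjusted p = 0.32). Cdh2 differed the other way, with line 1 lower by a log2 difference of -1.03 ± 0.17 (adjusted p = 0.00762). The ratio of Cdh2 to Cdh3 TPM was accordingly 0.367 and 0.396 in Fib-Ctrl line 1 but 1.92 and 2.05 in Fib-Ctrl line 2. In Fib-ΔZeb1 it was 1.71 and 1.66 in line 1 and 1.14 and 0.936 in line 2. All 4 Fib-ΔZeb1 values fell between those of the Fib-Ctrl lines.

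Jup was the only member called between lines in both genotypes. Line 1 was lower than line 2 in Fib-ΔZeb1 (log2 difference -0.54 ± 0.11, adjusted p = 0.0288) and higher in Fib-Ctrl (0.76 ± 0.11, adjusted p = 0.00519). The lines numbered 1 did not share an animal across genotypes, and for number 2 no link is known. The opposite signs thus carry no pairing. Ctnna1 had the smallest line difference in Fib-ΔZeb1, -0.01 ± 0.10, and -0.30 ± 0.10 in Fib-Ctrl (adjusted p = 0.0832). Cdh11 and Cdh13 were at log2 differences of -0.998 ± 0.33 and -2.97 ± 0.95 between lines of Fib-ΔZeb1, which did not pass (adjusted p = 0.113 and 0.105).

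**Figure D4:**
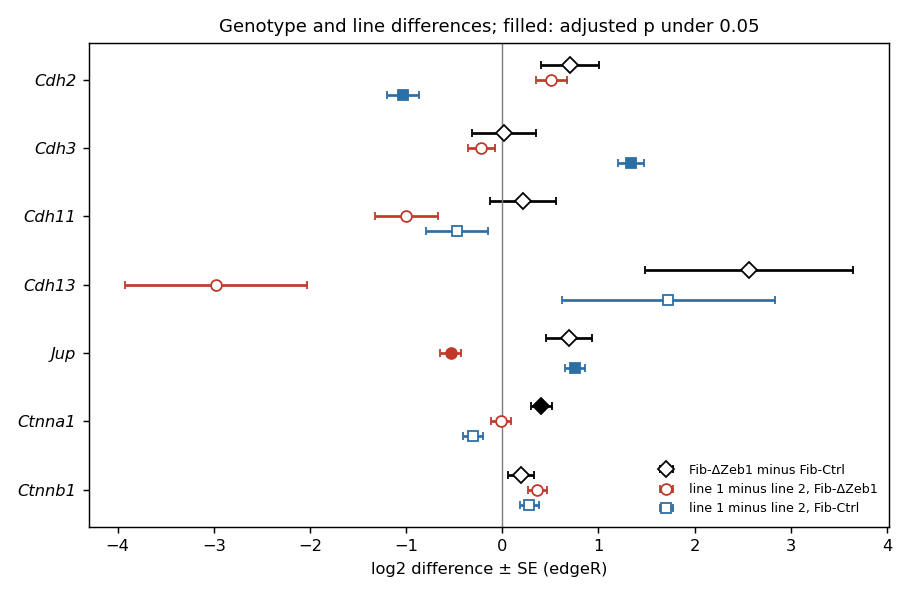
Log2 difference ± SE (x axis, edgeR) for the 7 tested members, with the genotype difference (Fib-ΔZeb1 minus Fib-Ctrl, diamonds) above the difference between lines within Fib-ΔZeb1 (circles) and within Fib-Ctrl (squares), and filled symbols for an adjusted p under 0.05. The only filled diamond is that of Ctnna1 at 0.41, while Cdh3 and Cdh2 have filled squares at 1.34 and -1.03.

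Transcript use varied little between genotypes, as a description of estimated shares. Cdh2 was split between Cdh2-201, the longer transcript, with 52.9% to 60.6% of its TPM in Fib-ΔZeb1 and 51.7% to 64.0% in Fib-Ctrl, and the shorter protein-coding Cdh2-202, with 39.4% to 47.0% in Fib-ΔZeb1 and 35.9% to 48.1% in Fib-Ctrl. Jup-201 held 86.9% to 89.5% of Jup in Fib-ΔZeb1 and 82.5% to 94.3% in Fib-Ctrl. Ctnnb1-201 held 85.0% to 96.8% of Ctnnb1 in Fib-ΔZeb1 and 86.3% to 96.8% in Fib-Ctrl. Cdh3, Cdh11 and Ctnna1 have only 1 transcript each in the quantification, so their shares could not vary.

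The profiles most like those of Cdh1, Cdh2 and Cdh11 were sought among 10378 protein-coding genes, by the root mean square difference of centred log2(CPM + 0.5) over the 8 libraries. For Cdh2 these were Myo10, B4galt3 and Sec11c, at 0.132, 0.153 and 0.165, against an SD of Cdh2 itself of 0.609. Each of them was lowest in the 2 Fib-Ctrl line 1 libraries, as Cdh2 was, and none was called between genotypes (adjusted p = 0.332, 0.145 and 0.0815). Both traits follow largely from picking genes by their likeness to Cdh2 and are not separate results. For Cdh11 they were Cachd1, Tent5a and Zfhx3, at 0.181, 0.204 and 0.258, against an SD of 0.549. For Cdh1, whose profile is nearly flat on this scale and rests on 0 to 9 reads, they were Pip4p1, Taf1a and Spg11, at 0.092 to 0.11.

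Partner genes were described from lists by their counts, beside 7.54% of all genes called higher and 8.65% lower (10.4% and 11.6% in DESeq2). Counts at an unadjusted p under 0.05 have no share of all genes beside them in any list. Without Fib-ΔZeb1 line 1, edgeR called 818 genes higher and 929 lower over all genes. Of 15 other cadherins, 4 were tested, 2 were called higher and 0 lower. Their median log2 fold change was 0.107. Cdh24 had 16.25 ± 2.65 CPM in Fib-ΔZeb1 and 6.01 ± 0.711 CPM in Fib-Ctrl (log2 fold change 1.43 ± 0.17, adjusted p = 0.00231). Cdh26 had 3.82 ± 1.51 CPM in Fib-ΔZeb1 and 1.09 ± 0.266 CPM in Fib-Ctrl (1.80 ± 0.36, adjusted p = 0.0144). Cdh7, Cdh8, Cdh9, Cdh16 and Cdh20 had no reads. At an unadjusted p under 0.05, 2 were higher and 1 lower, and DESeq2 called 2 higher and 0 lower. The list had 1 called higher and 0 lower without Fib-ΔZeb1 line 1.

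Of 21 other catenins and junction partners, 17 were tested, 2 were called higher and 1 lower. The median of their log2 fold changes was -0.0295. Afdn, the afadin that ties nectins to actin, had 108.5 ± 9.32 CPM in Fib-ΔZeb1 and 52.2 ± 9.53 CPM in Fib-Ctrl (log2 fold change 1.05 ± 0.15, adjusted p = 0.0044). Ctnnal1, which encodes an α-catenin-like protein, had 39.1 ± 6.48 CPM in Fib-ΔZeb1 and 17.9 ± 3.46 CPM in Fib-Ctrl (1.12 ± 0.18, adjusted p = 0.00625). Nectin1, an adhesion receptor that afadin binds, went the other way, with 28.6 ± 3.33 CPM in Fib-ΔZeb1 and 82.3 ± 32.3 CPM in Fib-Ctrl (log2 fold change -1.52 ± 0.27, adjusted p = 0.00912). The p120 catenin Ctnnd1 and vinculin (Vcl), abundant components of the same junctions, were not called (log2 fold change -0.12 ± 0.15, adjusted p = 0.606, and -0.03 ± 0.10, adjusted p = 0.861). These 2 genes were chosen after their values were seen. Without Fib-ΔZeb1 line 1 the list had 3 called higher and 2 lower.

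Of 14 desmosome genes, where Jup also serves, 5 were tested, 1 was called higher and 0 lower. Their median log2 fold change was 0.132. Pkp2, a plakophilin of the desmosomal plaque, had 99.0 ± 16.5 CPM in Fib-ΔZeb1 and 43.1 ± 3.57 CPM in Fib-Ctrl (log2 fold change 1.20 ± 0.13, adjusted p = 0.00169). Among the desmosomal cadherins, Dsg2 had 3.12 ± 2.12 CPM in Fib-ΔZeb1 and 0.302 ± 0.463 CPM in Fib-Ctrl, with no overlap between the genotypes (log2 fold change 3.33 ± 1.06, adjusted p = 0.0638, which missed the threshold). Dsc2 had 2.60 ± 3.09 CPM in Fib-ΔZeb1 and 2.37 ± 1.47 CPM in Fib-Ctrl (0.13 ± 1.35, adjusted p = 0.959). Dsg2 and Dsc2 were chosen after their values were seen. The other desmosomal cadherins stayed under 1 CPM in every library, and Dsg1a and Dsg1c had no reads. At an unadjusted p under 0.05, 2 desmosome genes were higher and 0 lower, and DESeq2 called 3 higher and 0 lower. Leaving out Fib-ΔZeb1 line 1, edgeR called 2 higher and 0 lower. Of 19 protocadherin, FAT, Dachsous and Celsr genes, 9 were tested, 0 were called higher and 3 lower (Pcdh1, Pcdh19 and Fat4). The median of their log2 fold changes was -0.775. At an unadjusted p under 0.05, for which no share of all genes was counted, 0 were higher and 5 lower. DESeq2 called 0 higher and 4 lower. Fat4, a giant cadherin that signals to the Hippo pathway, had 110 ± 35.7 CPM in Fib-ΔZeb1 and 268.5 ± 51.2 CPM in Fib-Ctrl (log2 fold change -1.29 ± 0.24, adjusted p = 0.0112). Pcdh19 had 33.5 ± 7.40 CPM in Fib-ΔZeb1 and 87.1 ± 37.8 CPM in Fib-Ctrl (-1.38 ± 0.32, adjusted p = 0.024).

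None of the 9 tested genes of the 10 in the β-catenin destruction complex was called by edgeR, and their median log2 fold change was -0.0301. At an unadjusted p under 0.05, 1 was higher and 0 lower, and DESeq2 called 1 higher and 0 lower. Its most abundant members, Csnk1a1 and Gsk3a, differed by log2 fold changes of -0.03 ± 0.09 (adjusted p = 0.855) and -0.17 ± 0.10 (adjusted p = 0.288). Of 18 TCF/LEF factors and target genes, 12 were tested, 1 was called higher and 1 lower. The median of their log2 fold changes was 0.267. Rnf43, a ubiquitin ligase that removes Wnt receptors, had 3.82 ± 2.71 CPM in Fib-ΔZeb1 and 0.593 ± 0.541 CPM in Fib-Ctrl (2.67 ± 0.68, adjusted p = 0.0328). Nkd2, an inhibitor of Wnt signalling, had 0.588 ± 0.265 CPM in Fib-ΔZeb1 and 4.18 ± 2.13 CPM in Fib-Ctrl (-2.82 ± 0.51, adjusted p = 0.00932). Axin2, a widely used target of β-catenin and TCF, stayed under 1 CPM in every library. It was chosen after its values were seen. Without Fib-ΔZeb1 line 1 the counts were 0 higher and 1 lower.

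Of 20 genes for enzymes that cut or modify cadherins and catenins (proteases, kinases, phosphatases and a ubiquitin ligase), all tested, 2 were called higher and 5 lower. Their median log2 fold change was -0.0629. The Src family parted, with Src (log2 fold change 0.52 ± 0.10, adjusted p = 0.0143) and Yes1 (0.50 ± 0.11, adjusted p = 0.0188) higher and Fyn lower (-0.83 ± 0.15, adjusted p = 0.0106). The receptor phosphatase Ptprm was lower (-0.72 ± 0.21, adjusted p = 0.0499). Psenen and Furin were also called lower. Without Fib-ΔZeb1 line 1 the counts were 1 higher and 3 lower.

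Of 16 factors known as repressors or activators of Cdh1, 12 were tested, 1 was called higher (Klf5) and 3 lower (Zeb1, Klf4 and Grhl1). The median of their log2 fold changes was -0.345. Klf4 had 14.5 ± 4.62 CPM in Fib-ΔZeb1 and 61.9 ± 9.59 CPM in Fib-Ctrl (log2 fold change -2.10 ± 0.22, adjusted p = 0.00152). Klf5 had 9.66 ± 2.13 CPM in Fib-ΔZeb1 and 3.49 ± 1.65 CPM in Fib-Ctrl (1.47 ± 0.36, adjusted p = 0.0283). Grhl1 was at 0.138 ± 0.116 CPM in Fib-ΔZeb1 and 0.992 ± 0.271 CPM in Fib-Ctrl (-2.85 ± 0.71, adjusted p = 0.0304). Zeb2, a paralogue of Zeb1 that also represses Cdh1, had 73.1 ± 7.12 CPM in Fib-ΔZeb1 and 92.4 ± 63.7 CPM in Fib-Ctrl (-0.34 ± 0.47, adjusted p = 0.654), and Snai1 had 55.8 ± 5.94 CPM in Fib-ΔZeb1 and 71.2 ± 15.8 CPM in Fib-Ctrl (-0.35 ± 0.16, adjusted p = 0.17). The wide spread of Zeb2 in Fib-Ctrl lay between its lines, with line 1 lower by a log2 difference of -1.96 (adjusted p = 0.000819). Of the 12 factors, 4 were lower in line 1 of Fib-Ctrl than in line 2 (Zeb2, Snai2, Twist1 and Klf5) and 1 was higher (Twist2, 0.86, adjusted p = 0.0387). Zeb2, Snai1, Snai2, Twist1 and Twist2 were chosen after their values were seen. Grhl2, Ovol1, Ovol2 and Elf3 stayed under 1 CPM in every library, whereas Klf4 and Klf5, given above, did not. Without Fib-ΔZeb1 line 1 the counts were 0 higher and 2 lower.

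**Figure D5:**
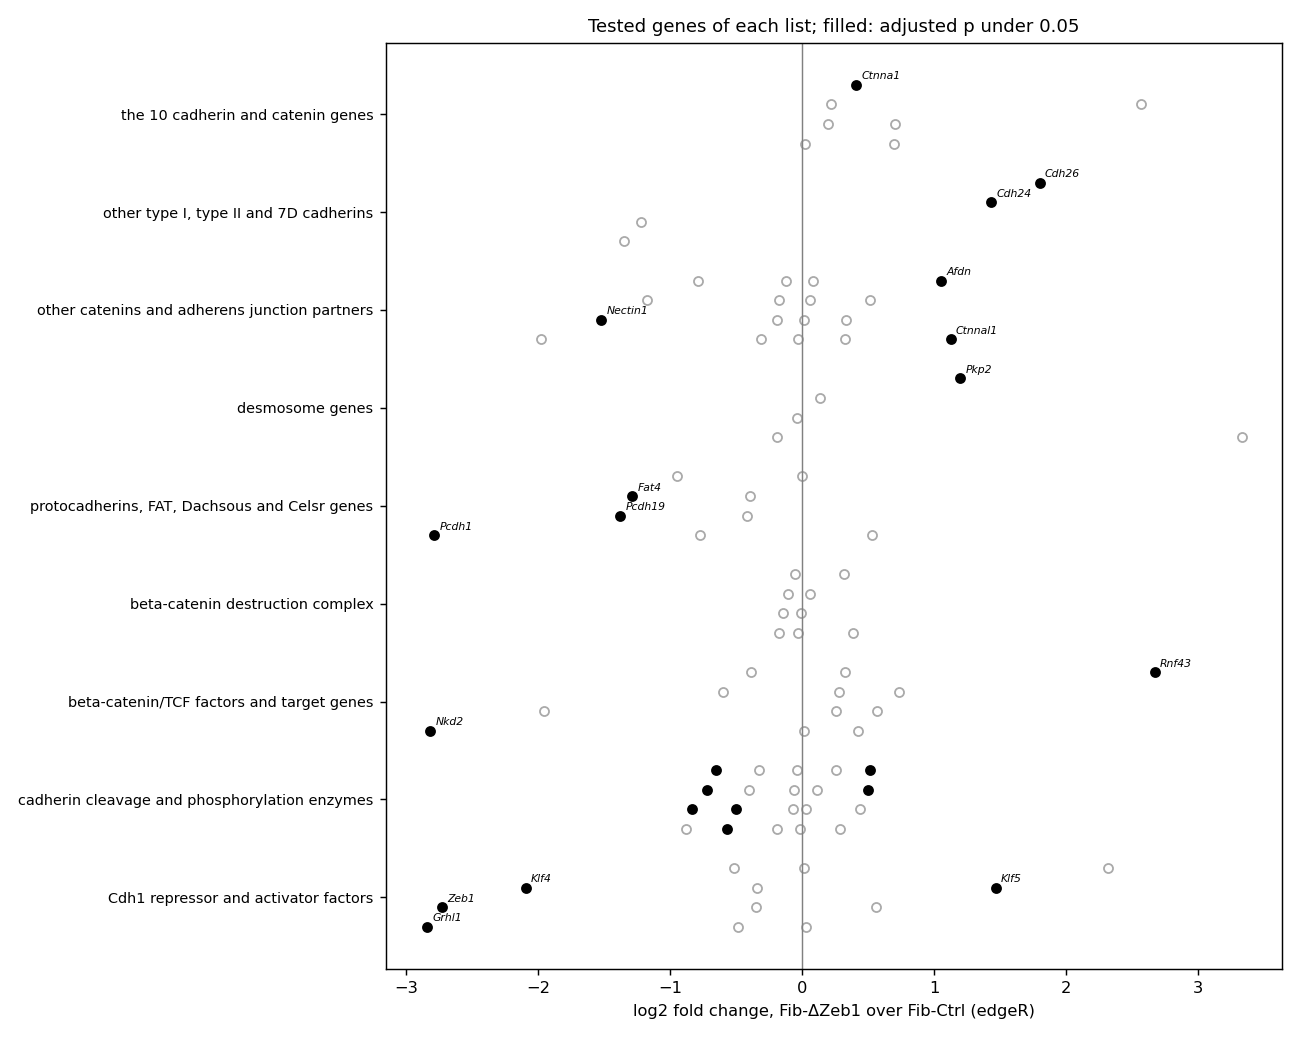
Log2 fold change of Fib-ΔZeb1 over Fib-Ctrl (x axis, edgeR) of every tested gene in the 9 lists (rows, with heights within a row only separating the points), filled where the adjusted p was under 0.05 and then named, except in the enzyme row. Ctnna1 is the only filled point of the 10 cadherin and catenin genes, the destruction complex has none, and the 3 filled protocadherin and FAT genes lie at -2.79 to -1.29.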

How the data were processed

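Polyadenylated bulk RNA was sequenced in 8 libraries, 2 replicates of each of 2 lines per genotype. Per the labels, STAR (alignment to GRCm38) and Salmon (quantification) were used by the authors (versions not given in the sources used here). The deposited files hold, per transcript, estimated counts without normalization, TPM scaled by the authors to a fixed total per library, and effective lengths. The expected counts and TPM deposited by the authors were summed to genes with GENCODE M21, which matched 108214 of 109617 transcripts (98.72%). Unmatched transcripts held 0.262% to 0.303% of reads. Sums were rounded to whole numbers. Counts of replicate libraries of a line were compared by chi-square and differed beyond sampling noise. All 8 entered as separate samples.

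Genotypes were compared with edgeR 4.0.16 in R 4.3.3 (TMM scaling, filterByExpr, quasi-likelihood test, genotype as the only term, Benjamini-Hochberg adjustment over 12963 genes). Members under the filter were compared by exact permutation on log2(CPM + 0.5). DESeq2 1.42.0 and limma 3.58.1 served as alternatives. The biological coefficient of variation was 32.1%. The 95% intervals are the estimate ± 1.96 SE, without allowance for the small number of libraries. The script was tested on simulated data. The members and gene lists were chosen with earlier results of these data known.

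All 10 members are named. From each other list, the text names up to 3 called members in each direction with the largest fold change and no overlap between genotypes, otherwise the 2 most abundant (not given singly for cell type lists without a call). For Cdh1, Cdh2 and Cdh11 it names the 3 protein-coding genes with the smallest root mean square difference of profile, among those with at least 5 CPM in the higher genotype. A gene that this rule names is not reported here. Antisense and overlapping genes cannot be told apart, since the strand setting is not given in the sources used here.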

Additional observations from a re-analysis of the deposited data

Results flagged for a closer look

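Among the 18 sets of 4 libraries examined (each member in each genotype, where reads differed), 2 held a library whose gap to its nearest neighbour passed Dixon's 95% critical value. Both were of Cdh1. Fib-ΔZeb1 line 2 replicate 1 had 0.41 CPM (9 reads, against 4 to 5 in the other Fib-ΔZeb1 libraries), and Fib-Ctrl line 1 replicate 1 had 0.137 CPM (3 reads, against 0 in the other Fib-Ctrl libraries). These are also the libraries in which the reads were placed on the shorter Cdh1 transcript. Chance alone passes that value in about 1 of 20 sets of normally distributed values, a rate that does not hold for tied counts near 0. With 0 reads in the other Fib-Ctrl libraries, that set passes at any nonzero count. At these read numbers counting error is large. The cause of these 2 gaps was not tested.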

How the results depend on the processing

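The number of members called higher was 1 in the reported fit. It was 3 with DESeq2, 2 with library size alone, on TPM and without both libraries of Fib-Ctrl line 1, and 0 with no expression filter, with limma-voom and a line correlation of 0.543, with the reads of a line summed, and with replicate 1 or replicate 2 libraries alone. Leaving out 1 library gave 0 to 1. Alternatives chosen after seeing the data gave 2 without Fib-Ctrl line 2 and 0 without Fib-ΔZeb1 line 2. The number called lower was 0, and 1 (Cdh6) with DESeq2, with no filter and without Fib-Ctrl line 1. Members called between lines numbered 4 in Fib-ΔZeb1 and 6 in Fib-Ctrl with no filter, where no share of all genes was counted. The cause was not tested.

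Over all genes, 978 were called higher and 1121 lower. The counts were 1572 and 1758 with DESeq2, 1985 and 726 on TPM, 2272 and 719 with library size alone, 114 and 146 with the line correlation, 9 and 7 with lines summed, 4 and 1 with replicate 1 alone, 6 and 4 with replicate 2 alone, and 384 and 433 without Fib-ΔZeb1 line 2. Leaving out 1 library gave 476 to 1011 higher and 508 to 1141 lower. The share called higher was 46.6%, but 76.0% with library size alone and 73.2% on TPM, where the median of all genes shifts.

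With a replicate block, 920 genes were higher and 1046 lower, and Ctnna1 stayed called (adjusted p = 0.0471). With line number as a block, which treats equal numbers as linked, 1292 genes were higher and 1374 lower. That block links the lines numbered 1, although these did not share an animal. Ctnna1 stayed called in that fit (adjusted p = 0.0217). Where line number and replicate number were both shared, deviations correlated between genotypes by -0.054 to 0.23. Low correlations cannot exclude pairing. By their Xist and Ddx3y reads, the lines numbered 1 did not share an animal. Whether number 2 links cultures remains unknown. Changes between replicate 1 and 2 correlated by 0.17 to 0.38 between lines. Of 1173 values of 51 named genes under alternatives, 202 lost the call, 26 gained it and 37 changed sign, in 9 genes. None of these 37 was called in either fit. Without both libraries of Fib-Ctrl line 2 the log2 fold change was -0.51 for Cdh3, 0.072 for Csnk1a1 and 0.16 for Zfhx3. Without Fib-Ctrl line 1 it was -0.0043 for Cdh11 and -0.11 for Tent5a. Without Fib-ΔZeb1 line 2 it was -0.091 for Cdh3, -0.37 for Cdh11, -0.97 for Cspg4, -0.29 for Cachd1 and -0.24 for Tent5a, and without Fib-ΔZeb1 line 1 0.25 for Zfhx3. With replicate 2 alone it was -0.028 for Cdh3, -0.0032 for Cdh11 and -0.049 for Kdr, and with replicate 1 alone 0.0076 for Csnk1a1 and 0.096 for Zfhx3. With library size alone Csnk1a1 was at 0.15, Gsk3a at 0.0076 and Zfhx3 at 0.18, and on TPM Csnk1a1 was at 0.15 and Zfhx3 at 0.18. Cspg4 was at -0.18 with the line correlation and -0.018 with line number as a block. Zfhx3 was at 0.0015 with DESeq2, 0.0087 with no filter and 7.6e-05 with the size factors of DESeq2. Leaving out 1 library gave -0.20 to 0.27 for Cdh3, -0.077 to 0.45 for Cdh11, -0.074 to 0.0084 for Csnk1a1, -0.12 to 0.63 for Cspg4 and -0.11 to 0.17 for Zfhx3. Library depth limits Cdh1, Cdh4 and Cdh6, and the small number of lines limits every call.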
